A study of Bos taurus with 36 samples.

Results

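Unilateral frequent milking separates the effect of milk removal from that of the cow, since both sides of 1 udder share her hormones, diet and age while only 1 side is emptied more often. The samples described here are the 12 mammary biopsies of lactation day 21, of 36 in the series, chosen by their titles. There were 6 from rear glands milked 4 times daily (4×) and 6 from rear glands milked 2 times daily (2×). They were paired by the replicate number in the titles, which was taken as the number of the cow. The animals were 6 multiparous Holstein cows with no genetic modification. The right side of each udder was milked 4× on days 1 to 21 and the left side 2×, and both were milked 2× afterwards, so that the 12 biopsies of day 40, also from rear glands and used below for comparison, came from sides that no longer differed in milking. Because 4× was the right side in every cow, side and milking frequency cannot be told apart. The biopsies were trimmed parenchyma taken after both sides had been milked, and 1 GeneChip Bovine Genome Array was hybridised for each.

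Milk is made by alveolar epithelial cells that fold and pack caseins in the endoplasmic reticulum and Golgi, synthesise lactose in the Golgi and bud fat droplets wrapped in apical membrane. Myoepithelial cells around the alveolus squeeze the milk out, and ducts, lined by other luminal cells, carry it away. When milk is left in the gland, pressure and milk-borne factors act on the same cells that made it, and prolonged stasis starts involution, in which secretory cells die, macrophages clear them and acute phase and iron-binding proteins fill the lumen. More frequent milking shortens each period of stasis. The question of the comparison was which transcripts differed in the gland at the end of 3 weeks of such milking.

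Differential expression (4× minus 2×) is, within a cow, the log2 level in her 4× gland less the level in her 2× gland, so a value of 1 is a 2-fold higher and −1 a 2-fold lower level in the 4× gland. It was tested against 0 with limma over the 6 cows, and SE is the standard error that limma gives (n = 6). The 7 milk protein genes measured are the defining markers of lactating mammary tissue. Each taken by its brightest probe set, they lay among the brightest on all 12 arrays. Their log2 levels ran from 12.998 for CSN1S1 to 15.06 for CSN2. Of 24016 probe sets, 1277 were higher in the 4× gland at an unadjusted p under 0.05, which is 5.32%, and 1202 were lower, which is 5.00%. In both directions together these were 2479, or 10.3%, where chance would give 1201. The probe sets share arrays, so this excess carries no test. With Benjamini-Hochberg adjustment across the whole array, limma called 0, with a smallest adjusted p of 0.480 that 3187 probe sets shared. When arrays were scaled to 5 reference genes (RPS9, RPS15, UXT, MRPL39 and GAPDH) the split was 1541 higher and 644 lower, as this moved the median of all probe sets from 0.018 to 0.114. Whether milking left these 5 unchanged was not tested, and GAPDH was among the genes the study took as differing on day 21. The study reported that its own normalization by reference genes did not change its results significantly. A gene is called higher or lower below where its unadjusted p in that fit was under 0.05, and each such gene had the adjusted p of 0.480, so these words give the direction of a mean and are no call. A gene whose p was 0.05 or more is given with the words "not under the threshold" or in a sentence that says so. Further probe sets of a gene, of which not all are shown, are given by their value. Counts of a list are to be set beside all 9172 genes taken by 1 probe set, of which 4.58% were higher and 6.06% lower. A count near these shares is not read as a result of the list. The lists were chosen with earlier results of these data known, so a count above a share carries no test either.

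The cows differed in how far their glands stood apart. The SD of differential expression over all probe sets was 0.597 in cow 1, between 0.195 and 0.326 in cows 2 to 6, and in cow 1 alone 768 probe sets were higher and 1238 lower in the 4× gland by at least 1. Over all probe sets the differences of cow 1 were alike to those of cow 3 (r = 0.472) and of cow 6 (r = 0.439), whereas those of cow 5 were not alike to those of cow 1 (r = −0.01) and were opposed to those of cow 4 (r = −0.19); these are correlations across probe sets, which share arrays and are not independent. Values are therefore given by cow, and of the 247 probe sets named by rule or held by a list that were under 0.05, 57 were not without cow 1 and 105 had a mean more than 1.5 times smaller, while 0 changed sign. These probe sets were taken for a p under 0.05, so the 0 carries no test. Of 46 list medians 29 became more than 1.5 times smaller without cow 1 and 5 changed sign. In biopsies of whole tissue, fewer cells of a type and less RNA per cell cannot be told apart by the arrays. In sections of these biopsies the study reported no effect of milking on the shares of epithelial and stromal cells. Cell types within these classes were not counted separately. It also reported none on thymidine incorporation or on apoptotic cells.

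A total of 55 genes had the same sign in 6 of 6 cows and either the smallest p or the largest mean difference, 29 of them higher and 26 lower in the 4× gland. Of all probe sets, 870 (3.62%) were higher and 582 (2.42%) lower in 6 of 6 cows. The 29 had mean differences from 0.28 to 0.98, and the 26 from −0.36 to −1.96. Thus 23 of the 24 probe sets with a mean difference of at least 1 in size were lower in the 4× gland. All 55 had a p under 0.05 without cow 1 as well, but they were chosen by p, size and sign over the same cows, so this carries no test.

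LRP2, an endocytic receptor of the low density lipoprotein receptor family that takes up vitamin carriers and lipoproteins, had the smallest p of the named genes. Its log2 level was 4.28, 6.92, 4.91, 5.63, 6.51 and 5.88 in the 2× glands of cows 1 to 6 and 5.31, 7.65, 6.28, 6.22, 6.89 and 7.54 in their 4× glands. The level differed more between cows than between the glands of a cow, so the groups overlapped, but every cow was higher on the 4× side, by 0.39 in cow 5 to 1.66 in cow 6. Differential expression was 0.96 (SE 0.16), or 1.94-fold, and 0.95 without cow 1. On day 40 it was −0.01 (SE 0.13).

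UFL1 and UFM1 belong to 1 pathway. UFM1 is a ubiquitin-like protein that is attached to targets at the endoplasmic reticulum, ribosomal proteins among them, and UFL1 is the ligase that attaches it. The 2× glands had UFL1 levels of 4.69, 5.49, 5.10, 5.21, 5.36 and 5.32 in cows 1 to 6, and the 4× glands 5.20, 5.92, 5.55, 5.52, 5.90 and 5.61. The groups overlapped, but the difference was between 0.29 and 0.53 in each cow, and its mean was 0.42 (SE 0.07). UFM1 was higher in 6 of 6 cows on both of its probe sets, by 0.71 (SE 0.18) on the dimmer and 0.42 (SE 0.11) on the brighter, with 1.83 in cow 1 and 0.29 to 0.74 in the other cows on the dimmer. The other 5 measured genes of this conjugation pathway were not under the threshold, with means of 0.03 to 0.07, namely the E2 enzyme UFC1 (0.05), the adaptors DDRGK1 (0.05) and CDK5RAP3 (0.07), and the proteases UFSP1 (0.03) and UFSP2 (0.04). So 2 of 7 genes were higher at p under 0.05, beside 4.58% of all 9172 genes when each is taken by 1 probe set, and the list's median was 0.05, or 0.02 without cow 1.

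PPP1R2, an inhibitor of protein phosphatase 1, ranged in the 2× glands from 5.61 to 6.86 around a median of 6.39 and in the 4× glands from 6.68 to 7.15 around 6.95. The 3 lowest 2× glands were those of cows 1, 3 and 6, whose 4× glands came close to the rest. Its mean difference was 0.61 (SE 0.13), and its other probe set had 0.47. XPO4, a nuclear transport receptor, was higher on all 3 of its probe sets, by 0.39, 0.38 and 0.48. CAMLG, a membrane receptor for insertion of tail-anchored proteins into the endoplasmic reticulum, was 1 of 2 named genes whose groups did not overlap, with 5.43 to 5.93 in the 2× and 5.99 to 6.16 in the 4× glands, but its other probe set had −0.04. The second was AQP1, a water channel of endothelium and other cells, with 5.63 to 6.50 in the 2× and 6.51 to 7.04 in the 4× glands on a probe set with a difference of 0.62 (SE 0.17), where its 2 other probe sets had 0.19 and 0.09, not under the threshold. In all, 17 probe sets (0.0708%) had every 4× gland above every 2× gland and 5 (0.0208%) every 4× gland below.

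**Figure D1:**
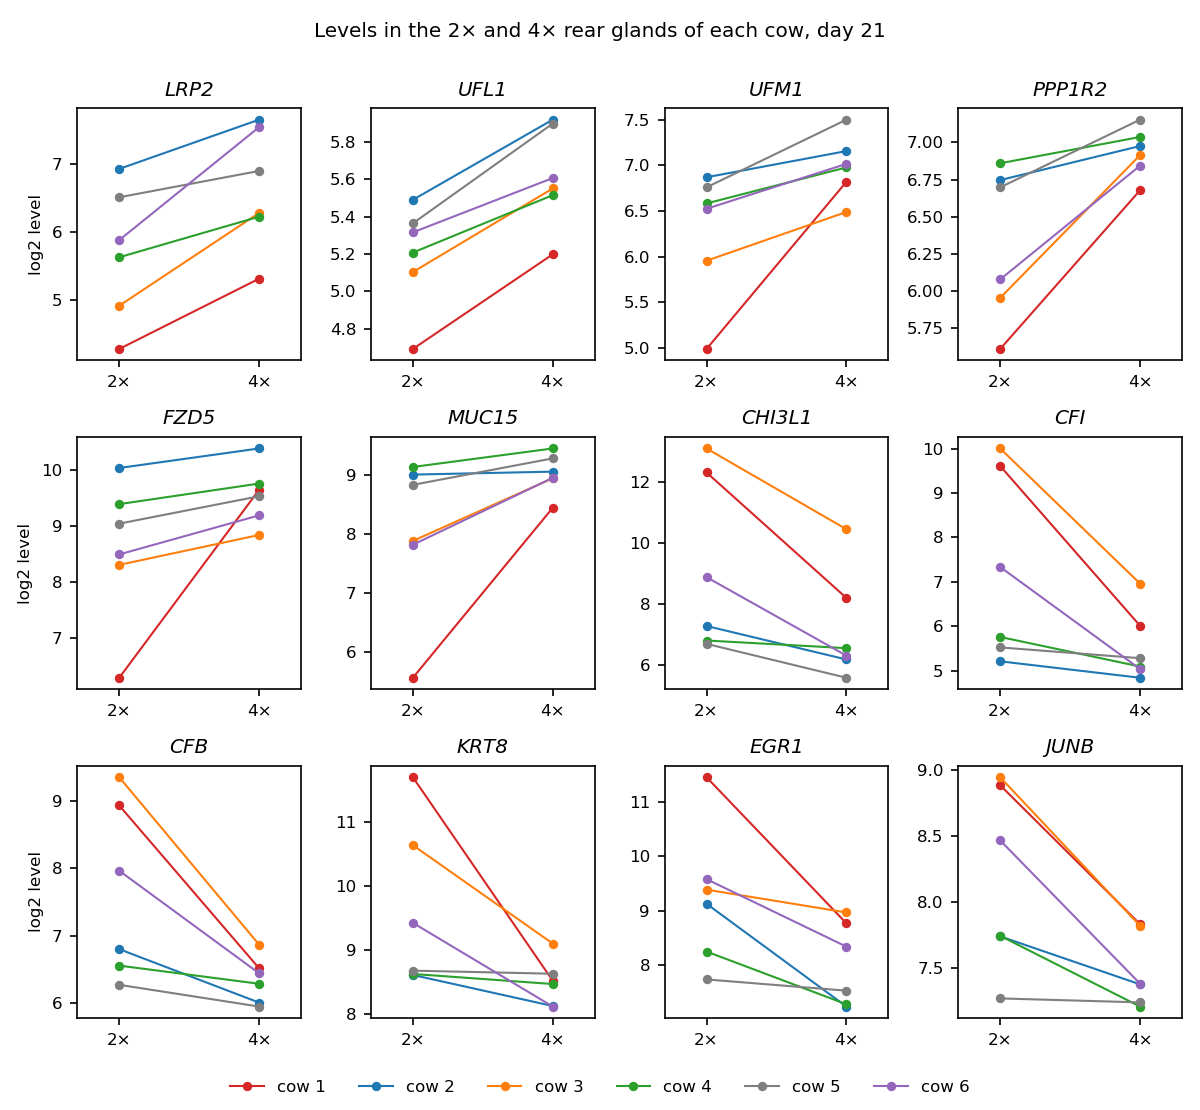
Log2 level (y axis, own range in each panel) of 12 of the named genes in the 2× and the 4× rear gland of each cow on day 21, with 1 line a cow. Lines of LRP2 and UFL1 rise in all 6 cows, whereas those of CHI3L1, CFI, CFB and KRT8 drop most in cows 1, 3 and 6, whose 2× glands were the highest; FZD5 and MUC15 differ most in cow 1.

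Several of the higher genes act in the secretory pathway. SRP72 is a subunit of the signal recognition particle, which brings nascent secretory proteins to the endoplasmic reticulum, and SEC23IP and SEC22B act in traffic from there to the Golgi. SRP72 was higher by 0.09 to 0.60 in the cows, with a mean of 0.38 (SE 0.08), but a brighter probe set of the same gene had 0.00, not under the threshold. SEC23IP had 0.41 (SE 0.10), and 0.18 and 0.08 on its other probe sets. SEC22B, a vesicle fusion protein, was higher in 6 of 6 cows on both probe sets, by 0.62 (SE 0.18) and 0.47 (SE 0.16), or 0.40 and 0.26 without cow 1. VPS36 and VPS37A, subunits of the complexes that sort membrane proteins into multivesicular bodies, had 0.35 and 0.42, where 2 other VPS36 probe sets had 0.04 and 0.01 and the other VPS37A probe set 0.24.

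The unfolded protein response, the set of sensors, chaperones and degradation factors that matches folding capacity to protein load, held the largest number of higher genes of the 46 lists. Of 30 measured genes 9 were higher and 0 lower, beside 4.58% and 6.06% of all genes, 28 had a positive mean, and the median was 0.17, beside 0.01 over all genes, of which 52.1% had a positive mean. The sensor kinase EIF2AK3 had 6.26 to 7.88 in the 2× glands, with a median of 7.07, and 7.28 to 7.97 in the 4× glands, with a median of 7.49. It was higher in 6 of 6 cows, by 1.02 in cow 1 and 0.09 to 0.65 in the others, with a mean of 0.44 (SE 0.12). Means were 0.34 for EDEM3 and 0.30 for DERL1, which act in the disposal of misfolded proteins, 0.37 for the lectin chaperone CALR, 0.50 for SERP1, which protects membrane proteins under stress, and 0.38 for ATF4, the transcription factor downstream of EIF2AK3, each in 6 of 6 cows. The chaperone HSPA5, commonly read as the marker of this response, had 0.15 (SE 0.10) in 5 of 6 cows, not under the threshold. The mean of the list was higher in 6 of 6 cows, by 0.55 in cow 1 and 0.05 to 0.20 in the others, and as each cow was left out the number of higher genes stayed between 8 and 11. Without cow 1 the median was 0.11, and CALR had 0.23, SERP1 0.28 and ATF4 0.25.

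Machinery upstream and downstream of folding had positive medians with smaller counts. Among 28 genes of translocation and glycosylation 26 had a positive mean, and the median was 0.14. Of these SRPRA, the receptor of the signal recognition particle, had 0.44 (SE 0.15) in 5 of 6 cows and SEC61A1, the channel, 0.26 (SE 0.10) in 6. They were the only 2 with a p under 0.05 on the probe set by which the list took a gene. Without cow 6 there were 5, and without each of cows 1, 2 and 3 there was 1. On dimmer probe sets SRP72 had 0.38 and SSR3 0.52 (SE 0.19), both with a p under 0.05. Of 34 genes of vesicle coats and cargo receptors 6 were higher and 1 lower, beside 4.58% and 6.06% of all genes, with a median of 0.15 and 29 positive means. The small GTPase SAR1A, which starts the COPII coat, had 0.37 (SE 0.11), and SEC22B, KDELR2, TMED9, TMED10 and the COPI subunit ARCN1 had 0.16 to 0.47. ARF5, a GTPase of the Golgi, was the lower one, at −0.30 (SE 0.11) in 5 of 6 cows. The 6 became 3 without each of cows 1, 4 and 6. Without cow 1, SEC61A1 had 0.16, KDELR2 0.16, TMED10 0.12 and ARCN1 0.12, not under the threshold, SRPRA had 0.27, and the medians of these lists were 0.10 and 0.08.

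Milk proteins, each taken by its brightest probe set, gave no p under 0.05 in the 7 genes. Their means ran from −0.01 for PAEP to 0.09 for CSN3. On a dim CSN2 probe set, at a mean level of 5.02, CSN2 was higher by 0.25 (SE 0.10). Another CSN2 probe set, at a mean level of 14.38, had 0.03, not under the threshold. On the brightest probe set of each gene, CSN2 was the highest of its array on 11 of 12 arrays and PAEP on 1. There every milk protein lay in the top 0.4% of each array, so that quantile normalization can hide a difference. Cow 1 had a mean of 0.29 over the 7 genes and the other cows −0.05 to 0.05.

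Lactose synthesis draws glucose in through SLC2A1, activates it through UGP2 and other enzymes and carries UDP-galactose into the Golgi through SLC35A2. None of the 11 genes had a p under 0.05 on the probe set by which this list took it. A positive mean was found for 9, and the median was 0.16, or 0.06 without cow 1. UGP2 had 0.32 (SE 0.15) with a positive sign in 6 of 6 cows, SLC2A1 had 0.32 (SE 0.15), also in 6, and SLC35A2 had 0.38 (SE 0.17) in 5. On a dimmer probe set SLC35A2 was higher by 0.37 (SE 0.11), in 6 of 6 cows. For SLC2A1, cow 1 had 1.27 and the other cows 0.07 to 0.23. HK1, a hexokinase, had −0.39 (SE 0.17).

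For milk fat, the 12 genes of the fat globule all had positive means, from 0.14 for XDH to 0.49 for MUC15, but only CIDEB, a lipid droplet protein, had a p under 0.05 (0.19, SE 0.08). The mean of the list was 1.24 in cow 1 and −0.01 to 0.15 in the other cows, and its median was 0.23 with cow 1 and 0.07 without. MUC15, a mucin of the globule membrane, ranged from 5.57 to 9.13 in the 2× and 8.44 to 9.45 in the 4× glands on the probe set with the largest mean difference among higher named genes, 0.98 (SE 0.31), or 0.60 without cow 1. Its brightest probe set, at a level of 12.5, had 0.49 (SE 0.23), not under the threshold.

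Among genes of fatty acid uptake and activation, ACSL1, the main long-chain acyl-CoA synthetase of the gland, was higher in 5 of 6 cows with a mean of 0.34 (SE 0.15), and ACSL5 lower in 6 of 6 with −0.60 (SE 0.21). LPL and VLDLR, which take up lipid from blood, each had 0.43, not under the threshold. In fatty acid synthesis 1 of 16 genes was higher, the nuclear receptor PPARG, at 0.32 (SE 0.11), while FASN with 0.20 (SE 0.11) and SCD with 0.26 (SE 0.16) were not under the threshold. ACACA, the first committed enzyme, was higher by 0.63 (SE 0.24) on 1 probe set and had 0.34 (SE 0.17), not under the threshold, on the brighter one. Of 11 genes of triglyceride synthesis 2 were higher and 0 lower, beside 4.58% and 6.06% of all genes. GPAT3 had 0.34 (SE 0.10) in 6 of 6 cows and LPIN1, a phosphatidate phosphatase and coactivator, 0.93 (SE 0.35). LPIN1 was higher by 3.04 in cow 1 and 1.46 in cow 3, against −0.04 to 0.52 elsewhere. The other LPIN1 probe set had 0.17, not under the threshold. Without cow 1, ACSL1 had 0.16, not under the threshold, so that 0 genes of its list were higher, and ACSL5 had −0.35, the first ACACA probe set 0.34 and LPIN1 0.50. The medians of uptake and of synthesis, 0.23 and 0.13, were then 0.07 and 0.03. In cholesterol synthesis 1 of 17 genes differed, FDFT1, the first enzyme committed to sterols, lower in 6 of 6 cows by −0.35 (SE 0.09) on its brightest probe set, with 0.14 and 0.05 on 2 others.

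Several large positive means rested on size in cow 1 but kept their sign in every cow. FZD5, a Wnt receptor, was at 6.30 in the 2× gland of cow 1 and 8.31 to 10.03 in the other 2× glands, and at 8.84 to 10.38 in the 4× glands. Its differences were 3.34 in cow 1 and 0.35 to 0.69 in the others, so that its mean of 0.96 (SE 0.35) became 0.49 without cow 1. SLC16A1, a monocarboxylate transporter, had 2.82 in cow 1 and 0.16 to 0.40 in the others, and PTHLH, the hormone through which the lactating gland mobilises calcium from bone, 2.74 and 0.00 to 0.46. Their means were both 0.71 (SE 0.31), and 0.29 and 0.31 without cow 1. In the list of amino acid and ion transporters, each taken by 1 probe set, SLC16A1 was the only higher gene of 23. SLC1A1, a glutamate transporter, was the only lower one, at −0.62 (SE 0.19), and its other probe set had −0.10, not under the threshold. Without cow 1 there were 3 higher and 2 lower. SLC34A2 had 0.80 (SE 0.36) in 5 of 6 cows, not under the threshold, and was higher by 0.87 (SE 0.31) on a dimmer probe set. Beside PTHLH, the list of calcium and serotonin genes held MAOA, which degrades serotonin, higher in 6 of 6 cows by 0.30 (SE 0.08).

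The largest mean differences of the named genes were lower in the 4× gland, with CHI3L1 first. CHI3L1, a secreted chitinase-like protein of inflamed and remodelling tissue, had a log2 level of 12.31, 7.29, 13.10, 6.81, 6.70 and 8.89 in the 2× glands of cows 1 to 6. In their 4× glands it was 8.21, 6.19, 10.46, 6.56, 5.595 and 6.32. The 2× glands of cows 1 and 3 stood far above the rest, the 4× gland of cow 3 was also high, and every cow was lower on the 4× side, from −0.25 in cow 4 to −4.11 in cow 1. The mean was −1.96 (SE 0.42), a 3.90-fold higher level in the 2× gland, and −1.53 without cow 1.

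Complement genes followed the same cows. CFB, which forms the convertase of the alternative pathway, was at 8.93, 6.80, 9.35, 6.56, 6.27 and 7.96 in the 2× glands and at 6.52, 6.01, 6.87, 6.29, 5.95 and 6.44 in the 4× glands. The 4× glands thus lay within a narrow span while the 2× glands of cows 1, 3 and 6 stood above it, and the mean was −1.30 (SE 0.30). CFI, a protease that cleaves C3b and C4b, had −1.70 (SE 0.44), with −3.60, −3.04 and −2.30 in cows 1, 3 and 6 and −0.24 to −0.67 in the others. Of 22 measured complement genes 8 were lower and 0 higher, beside 6.06% lower and 4.58% higher of all genes, and the median was −0.19. The 8 included the initiating proteases C1S (−0.47, SE 0.12) and C1R (−0.36), the subunits C1QB (−0.24) and C1QC (−0.34), C3 (−0.41) and the inhibitor SERPING1 (−0.32). Of the membrane regulators, CD46 had 0.23 (SE 0.10) and CD55 −0.17 (SE 0.08), both not under the threshold. The study had put 3 of the 22 on a list it chose on these samples. The number of lower genes was 6 without cow 3 or cow 6 and 7 to 9 without each other cow. Without cow 1, C1QB had −0.19, not under the threshold, and SERPING1 had −0.21.

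Among 33 acute phase and defence genes 8 were lower and 1 higher, beside 6.06% and 4.58% of all genes, and the median was −0.12. SAA3, the serum amyloid of mammary tissue, was lower by −1.56 (SE 0.41) in 5 of 6 cows, with levels of 8.59 to 13.81 in the 2× and 7.83 to 11.56 in the 4× glands. LTF, the iron-binding milk protein lactoferrin, was lower in 6 of 6 cows by −0.79 (SE 0.23), from −0.04 in cow 5 to −1.83 in cow 6. The protease inhibitor SERPINA1 had −0.48 (SE 0.14), the lysozyme LYZ2 −0.69 (SE 0.21), the chemokine CCL2 −0.99 (SE 0.35) and the adhesion molecule ICAM1 −0.25 (SE 0.09). MYD88, the adaptor of Toll-like receptors, was the higher one at 0.30 (SE 0.11), and the receptor TLR2 had 0.38 (SE 0.18), not under the threshold. Without cow 3 the number lower was 5, and the study's own list held 5 of the 33. CLU, a secreted chaperone that marks the involuting gland, was lower by −1.28 (SE 0.38), with −3.05, −2.43 and −1.53 in cows 1, 3 and 6 and −0.07 to −0.49 in the others. It stood apart in the list of STAT3 signalling, the pathway of early involution, where PIK3R1 was the only other lower gene of 15 (−0.31, SE 0.13), STAT3 itself had −0.16 (SE 0.14), SOCS3 −0.02 (SE 0.07), both not under the threshold, and the median was −0.10. Without cow 1, MYD88 had 0.21 and PIK3R1 −0.19, not under the threshold, LYZ2 had −0.46 and CCL2 −0.62, and the median of the STAT3 list was −0.07.

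Epithelial keratins and junction genes were the list with the most lower members. Keratins KRT8 and KRT18 form the filaments of luminal cells, KRT5 and KRT14 those of basal cells, and claudins seal the paracellular path. Of 20 measured genes 12 were lower and 0 higher, beside 6.06% and 4.58% of all genes, 19 had a negative mean, and the median was −0.43. KRT8 was at 11.69, 8.61, 10.63, 8.63, 8.68 and 9.42 in the 2× glands and 8.52, 8.13, 9.10, 8.47, 8.63 and 8.12 in the 4× glands. Its differences were −3.17, −1.53 and −1.30 in cows 1, 3 and 6 and −0.05 to −0.48 elsewhere, with a mean of −1.11 (SE 0.35). CLDN4 had −0.92 (SE 0.25), KRT7 −0.88 (SE 0.29), KRT18 −0.75 (SE 0.30), KRT14 −0.54 (SE 0.15), KRT5 −0.48 (SE 0.19) and the cadherin CDH1 −0.58 (SE 0.25). The number lower was 7 without cow 3 or cow 6, 8 without cow 1, and 9 to 13 without each other cow, and the median without cow 1 was −0.21. Without that cow KRT5 had −0.28, not under the threshold, and KRT8 had −0.70, KRT7 −0.56, KRT18 −0.38 and CDH1 −0.26. The study's list held 4 of the 20.

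The list of luminal progenitor and ductal genes had the lowest median, −0.61, and −0.37 without cow 1. Of 13 measured genes 7 were lower and 0 higher, beside 6.06% and 4.58% of all genes, 6 of the 13 being on the study's list. FOXQ1, a forkhead transcription factor, was at 9.47 and 8.68 in the 2× glands of cows 1 and 3, at 5.36 to 5.86 in the other 2× glands and at 4.87 to 5.72 in the 4× glands. Its mean was −1.50 (SE 0.45). The transcription factors ELF3 (−0.56, SE 0.17), SOX4 (−0.92, SE 0.33), SOX9 (−0.85, SE 0.37) and TFCP2L1 (−0.85, SE 0.33) and the aldehyde dehydrogenase ALDH1A3 (−0.93, SE 0.36) were also lower. The other SOX4 probe set had −0.16, not under the threshold. KIT, the receptor that marks luminal progenitors, had −0.61 (SE 0.28, not under the threshold) on its brighter probe set and was lower by −0.87 on a dimmer one of its 4, and the hormone receptors ESR1 and PGR, at levels near 4, had 0.12 and 0.11, not under the threshold. Without cow 3 the 7 became 4. Without cow 1, SOX9 had −0.45 and ALDH1A3 −0.68, not under the threshold, and ELF3 had −0.37, SOX4 −0.57 and TFCP2L1 −0.46, with −0.40 on the dimmer KIT probe set.

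Immediate-early genes are transcribed within minutes of a stimulus and encode the transcription factors and RNA-binding proteins of the first response. EGR1 had 11.46, 9.13, 9.39, 8.25, 7.73 and 9.58 in the 2× glands of cows 1 to 6 and 8.77, 7.23, 8.97, 7.27, 7.53 and 8.34 in the 4× glands. Cows 1 and 2 had the largest differences, −2.69 and −1.90, and cow 5 the smallest, −0.21, around a mean of −1.24 (SE 0.28). A second, less bright EGR1 probe set had 0.16, not under the threshold. JUNB had −0.70 (SE 0.15), with −1.05, −1.13 and −1.09 in cows 1, 3 and 6, −0.36 and −0.54 in cows 2 and 4 and −0.03 in cow 5. Of 27 genes in the list 8 were lower and 0 higher, beside 6.06% and 4.58% of all genes, and the median was −0.25, or −0.13 without cow 1. The others lower were ZFP36L1 (−0.43) and ZFP36L2 (−0.74), which bind AU-rich messages, IER3 (−0.38), KLF10 (−0.79), KLF11 (−0.75) and the survival factor MCL1 (−0.36). The study named this ZFP36L2 probe set ZNF36, and the other ZFP36L2 probe set had −0.04, not under the threshold. Without cow 3 there were 5. Without cow 1, ZFP36L1 had −0.28, ZFP36L2 −0.49, KLF10 −0.43, KLF11 −0.37, FOS −0.89 and JUN −0.63, the last pair on their named probe sets. FOS and JUN depended on the probe set: FOS had −1.42 (SE 0.43) on 1 and −0.72 (SE 0.47, not under the threshold) on the other of like level, where only cow 1 moved by more than 0.27, and JUN had −1.19 (SE 0.42) on the named one and −0.03 to −0.88 on 4 others, all with a p of 0.05 or more.

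Targets of YAP, a coactivator that responds to cell stretch, showed both directions. Of 10 genes with a median of −0.31, 5 were lower and 2 higher, beside 6.06% and 4.58% of all genes. CCN1 (−0.71, SE 0.30), CCN2 (−0.50, SE 0.18), CRIM1 (−0.47), TGFB2 (−0.45) and F3 (−0.59) were lower, and NT5E, an ectonucleotidase, was higher at 0.50 (SE 0.19). Only 2 of the 5 were lower without cow 6, and 3 without cow 4. Without cow 1 the median was −0.20, CRIM1 had −0.29, not under the threshold, and CCN1 had −0.33, F3 −0.33 and NT5E 0.28. THBS1 counted as higher on its brightest probe set (0.28, SE 0.11), but of its 6 probe sets 2 were higher and 2 lower at p under 0.05, the lower with −1.08 (SE 0.32) and −0.69, so its direction is uncertain; the 0.28 was 0.17 without cow 1, not under the threshold. Of 8 genes of ERBB receptors and ligands 4 were lower and 0 higher, beside 6.06% and 4.58% of all genes, with a median of −0.21. The 4 were the inhibitor ERRFI1 (−0.67, SE 0.24), the adaptor GRB7 (−0.32), the receptor ERBB3 (−0.22) and the ligand BTC (−0.20). Without cow 3 only 1 of these 4 had a p under 0.05, and without cow 5 there were 2. Without cow 1, BTC had −0.20, not under the threshold, and GRB7 had −0.19. Other ERRFI1 probe sets had −0.33, with a p under 0.05, and 0.09 and 0.06, not under the threshold. Among 21 heat shock genes the small chaperones CRYAB (−0.88, SE 0.24), HSPB8 (−0.64), HSPB1 (−0.29) and HSPB2 (−0.25) and HSPA1A (−0.31) were lower. They were 5 in all, beside 6.06% of all genes, and 2 without cow 4 or cow 6. DNAJB5 was higher (0.36, SE 0.11). Without cow 1, HSPB1 had −0.16, not under the threshold, and HSPB8 had −0.35, HSPA1A −0.20 and DNAJB5 0.23. The list's median was −0.05, and 0.04 when arrays were scaled to reference genes.

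Markers of the other cells of the gland moved unevenly. Of 13 macrophage genes 6 were lower and 0 higher, beside 6.06% and 4.58% of all genes, with a median of −0.33, or −0.22 without cow 1, led by the adaptor TYROBP (−0.51, SE 0.16), LAPTM5 (−0.50, SE 0.17) and the receptor CSF1R (−0.39, SE 0.14). The summed list lay at a mean log2 level of 7.22 to 8.07 in the 2× and 7.17 to 7.33 in the 4× glands, and was lower in the 4× gland of 5 cows and higher by 0.10 in cow 5. Without cow 3 only 2 genes, and without cow 6 only 3, had a p under 0.05. Macrophages also express genes of the complement, lysosome and antigen presentation lists, and their part in those results was not tested. Of 27 lysosome genes 8 were lower, beside 6.06% of all genes, cathepsins CTSA, CTSB, CTSC, CTSH and CTSS among them with −0.29 to −0.67, and the median was −0.15. Without cow 3 there was 1, without cow 1 there were 2, without cow 4 there were 4 and without cow 6 there were 5. Of 32 genes of antigen presentation and the interferon response 8 were lower, beside 6.06% of all genes, 28 had a negative mean and the median was −0.22. These included UBE2L6 (−0.29, SE 0.08), IFI30 (−0.55), PSMB10 (−0.44), IFIT5 (−0.43) and a BOLA class gene (−0.49), and cow 1 had a list mean of −0.82 where the others had −0.18 to 0.03. The 8 became 3 without cow 3 and 5 without cow 1 or cow 4. Without cow 1 the medians of the lysosome and antigen presentation lists were −0.08 and −0.08. Then CTSA had −0.21, CTSB −0.21, CTSH −0.24, CTSS −0.24 and BOLA −0.42, not under the threshold, and TYROBP had −0.33, LAPTM5 −0.33, IFI30 −0.35, PSMB10 −0.28 and IFIT5 −0.23.

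Lymphoid markers were split, with 3 higher and 3 lower of 18, beside 4.58% and 6.06% of all genes. CD2 (−0.23, SE 0.08), CD3G (−0.19, SE 0.08) and JCHAIN, the joining chain of secreted IgA and IgM (−0.34, SE 0.12), were lower, and ZAP70 (0.58, SE 0.21), CD8B (0.19, SE 0.08) and GZMB (0.22, SE 0.09) higher. The other CD2 probe sets had 0.05 and −0.02, not under the threshold. The 3 higher became 0 without cow 3 and 1 without cow 1, 2 or 6, and the 3 lower became 1 without cow 4 and 0 when arrays were scaled to reference genes. Without cow 1, CD8B had 0.16 and GZMB 0.16, not under the threshold, and ZAP70 had 0.36. Of 9 neutrophil markers 4 were at a mean under 5 and S100A8 alone was lower (−0.64, SE 0.28). Endothelial markers had a median of 0.06. TIE1 (0.22, SE 0.07) was higher in 6 of 6 cows as the 1 of 15 with a p under 0.05, beside 4.58% of all genes. There were 0 without cow 3, 5 without cow 4, 4 without cow 5, 2 without cow 1 (median 0.14) and 3 when scaled to reference genes. Fibroblast and matrix genes had a median of −0.04, and 0.06 when scaled to reference genes, with MGP, an inhibitor of calcification, the 1 lower gene of 30 (−0.58, SE 0.20). The direction of MGP depended on the probe set, since its 3 others had 0.31, higher in 5 of 6 cows, and 0.18 and 0.06, not under the threshold. Myoepithelial markers had a median of −0.10 over 12 genes. There KRT5 and KRT14 were the 2 lower genes, whereas the contractile genes ACTA2, MYH11, MYLK and CNN1 had −0.09 to −0.24, not under the threshold. Skeletal muscle markers gave 3 higher and 1 lower gene of 18, beside 4.58% and 6.06% of all genes, with 6 at a mean under 5. NEB (0.81, SE 0.25) and MYBPC1 (0.84, SE 0.36) were higher, as was ATP2A1 (0.19, SE 0.08) at a level of 3.77. CKM was lower (−0.44, SE 0.19). The other ATP2A1 probe set had −0.05, not under the threshold. Without cow 1 this list had 1 higher and 0 lower. Adipocyte markers gave FABP4 alone (0.31, SE 0.12) of 9, and all 5 red blood cell markers were near background, at a mean of 4.10 to 4.45 in every gland. Among 19 metalloproteinases and inhibitors 3 were lower and 2 higher, beside 6.06% and 4.58% of all genes. TIMP2 (−0.51, SE 0.12), TIMP1 (−0.49, SE 0.19) and PLAU (−0.30) were lower and TIMP3 (0.36, SE 0.16) and MMP1, at a level near 4, higher. The other TIMP2 probe sets had −0.29 and 0.14, not under the threshold. Without cow 1, S100A8 had −0.43, MYBPC1 0.44, CKM −0.37, FABP4 0.20, PLAU −0.19, TIMP3 0.26 and MMP1 0.16, not under the threshold, and NEB had 0.52 and TIMP1 −0.26.

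**Figure D2:**
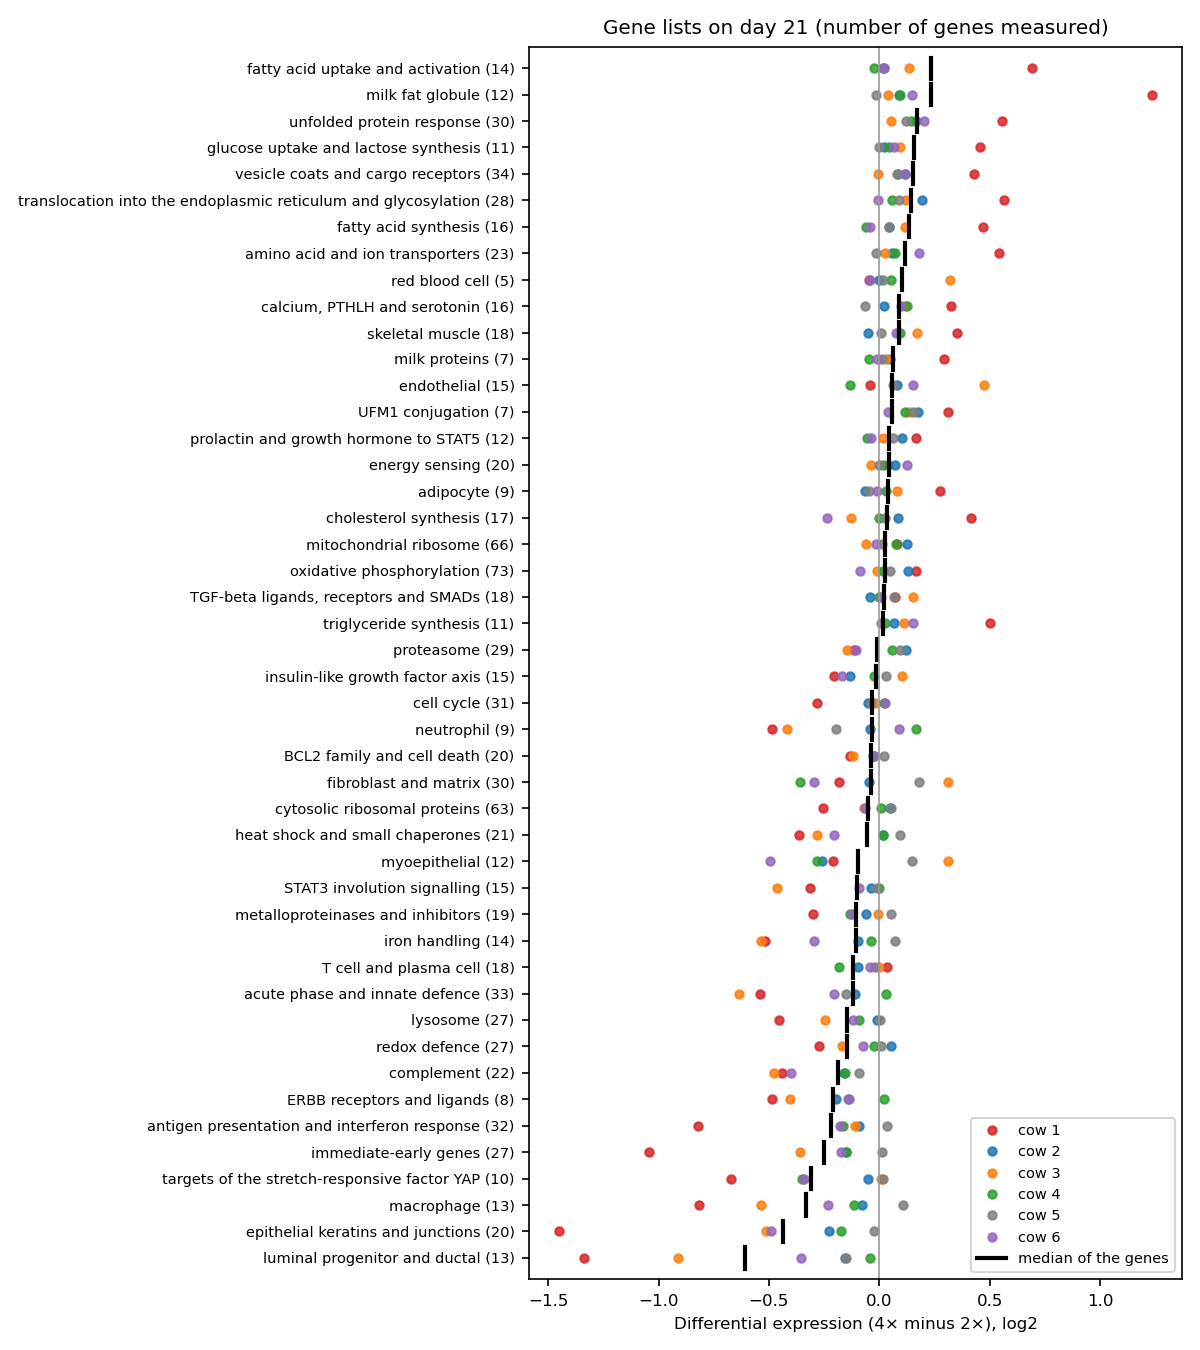
Mean differential expression (x axis, log2) of 46 gene lists in each cow (points) on day 21, sorted by the median over the genes of the list (black bars), with the number of genes measured after the name. Cow 1 lies furthest from 0 in most lists at both ends of the plot, whereas lists in the middle have medians within 0.10 of 0; the 6 points of the unfolded protein response are all above 0 and those of complement all below.

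Iron handling gave 4 lower and 1 higher of 14 genes, beside 6.06% and 4.58% of all genes, 4 of the 14 being on the study's list. CYBRD1, a ferric reductase, was at 8.01 to 10.43 in the 2× and 7.33 to 9.29 in the 4× glands, lower in 5 of 6 cows by up to −2.50 and with a mean of −1.04 (SE 0.28). Its second probe set had −1.02. CYB561 (−0.70, SE 0.18), FRRS1 (−1.03, SE 0.34) and LTF were the other lower genes. ACO1, which also acts as an iron sensor, was higher (0.36, SE 0.16), while FTH1 and FTL, the ferritin chains, had −0.24 each, not under the threshold. In redox defence 5 of 27 genes were lower, MGST1 and GSTT1 among them, and 2 higher, SOD1 (0.23, SE 0.09) and GSTM3 (0.37, SE 0.13), beside 6.06% and 4.58% of all genes. The 5 became 2 without cow 3 or cow 6, and 3 without cow 1 or cow 4. Energy sensing had 4 higher and 2 lower of 20, beside 4.58% and 6.06% of all genes. The catalytic subunit of AMP kinase PRKAA2 (0.47, SE 0.12), the regulatory subunit PRKAB1 (0.29) and the nuclear receptors PPARA (0.29) and PPARD (0.24) were higher, PRKAA2 and PPARA at levels under 5; the 4 became 2 without cow 1 or cow 3. SESN1 and TSC1, which restrain the kinase mTORC1, were lower, both by −0.24. Without cow 1, ACO1 had 0.20, SOD1 0.15, PRKAB1 0.21, PPARA 0.18 and TSC1 −0.18, not under the threshold, and GSTM3 had 0.22.

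Other genes with a small p had roles outside the lists. RBFOX2, a splicing regulator, was lower in 6 of 6 cows by −0.19 to −0.76, with a mean of −0.43 (SE 0.09) on 1 probe set and −0.12 and −0.31, not under the threshold, on 2 others. CKB, the brain form of creatine kinase, had −0.45 (SE 0.10), from −0.01 in cow 5 to −0.82 in cow 1. The probe set that the array's annotation gives as RGN, and the study as ERBB3, had −0.82 (SE 0.19) in 6 of 6 cows, where the ERBB3 probe set of the annotation had the −0.22 given above. GGT6, a gamma-glutamyltransferase, had −0.60 (SE 0.15), and LGALS3, a galectin, −1.08 (SE 0.33). In the list of TGF-beta ligands and receptors MSTN, a ligand best known as the inhibitor of muscle growth, stood out among 18 genes with a median of 0.02. It was higher by 0.96 (SE 0.24) and 0.83 (SE 0.22) on its 2 probe sets, each in 5 of 6 cows and with the largest value in cow 1 (2.16 and 1.82). TGFB2 and LTBP1 (−0.32) were lower and the receptor TGFBR2 (0.27) higher. Without cow 1, LTBP1 had −0.22 and TGFBR2 0.16, not under the threshold, and LGALS3 had −0.67.

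Large cellular machines stayed near 0. The median was −0.05 over 63 cytosolic ribosomal proteins, of which 55 had a negative mean, and 0.04 when scaled to reference genes. RPS9 and RPS15 among the reference genes are cytosolic ribosomal proteins too, so this scaled value is no independent check. The 1 gene with a p under 0.05, RPL37, was on a probe set with a level near background. The median was 0.03 over 66 mitochondrial ribosomal proteins, with 4 higher and 0 lower (1 higher without cow 2), beside 4.58% and 6.06% of all genes. It was 0.02 over 73 subunits of oxidative phosphorylation, with 1 higher, and −0.01 over 29 proteasome subunits, with 1 higher (0.09 when scaled to reference genes). Cell cycle genes had a median of −0.03 over 31 (0.06 when scaled to reference genes), with 9 at a mean under 5. CDKN1C, a cyclin-dependent kinase inhibitor, was lower in 6 of 6 cows there, by −0.35 (SE 0.10), but had −0.04 and 0.01, not under the threshold, on its other probe sets. CCNB2 (−0.22, SE 0.08) and TYMS (−0.20, SE 0.08) were the other lower genes and CDC6 (0.16) the 1 higher; the other TYMS probe set had 0.13. The 3 lower became 1 without cow 1 or cow 6, and the 1 higher became 0 without each of cows 1, 3, 4, 5 and 6. The proliferation genes MCM3, MCM4 and MCM7 had −0.25 to −0.36, not under the threshold. In the BCL2 family BOK (−0.39, SE 0.12) and MCL1 were lower and BAG1 (0.36, SE 0.15) higher of 20, where BAG1 had 0.18 without cow 1. The other BOK probe set had −0.01, not under the threshold. Of 12 genes from prolactin and growth hormone to STAT5, 0 had a p under 0.05; PRLR, the prolactin receptor, had −0.24 (SE 0.13) and IGF1 0.20 (SE 0.10). Of 15 genes of the insulin-like growth factor axis, the binding proteins IGFBP3 (−0.50, SE 0.21) and IGFBP4 (−0.19, SE 0.07) were lower, IGFBP3 by −0.25 without cow 1, IGF1R had 0.09 (SE 0.08, not under the threshold), and the median was −0.01, or 0.08 when scaled to reference genes.

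The 2× glands varied more between cows than the 4× glands in most of these lists. The SD between cows of the list mean was larger in the 2× than in the 4× glands in 38 of 46 lists, and at least 2 times as large in 21. For macrophage genes it was 0.33 against 0.05, for immediate-early genes 0.42 against 0.09, for keratins and junctions 0.61 against 0.16, and for the milk fat globule 0.48 against 0.13. Endothelial and myoepithelial genes were exceptions, with 0.16 against 0.20 and 0.21 against 0.25. Much of this lay in the 2× gland of cow 1: over all probe sets the median SD was 0.20 between 2× and 0.17 between 4× glands, larger between 2× glands for 65.9% of them, but without cow 1 it was 0.17 in both, larger between 2× glands for 51.2%, and 26 of 46 lists were more spread between the 2× and 20 between the 4× glands. Lower named genes had their highest 2× level in cow 1 for 18 and in cow 3 for 8 of 26, and higher named genes had their lowest 2× level in cow 1 for 23 of 29. The smallest difference of the lower genes was in cow 5 for 14 of 26. These shares describe genes chosen for their differences and carry no test.

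**Figure D3:**
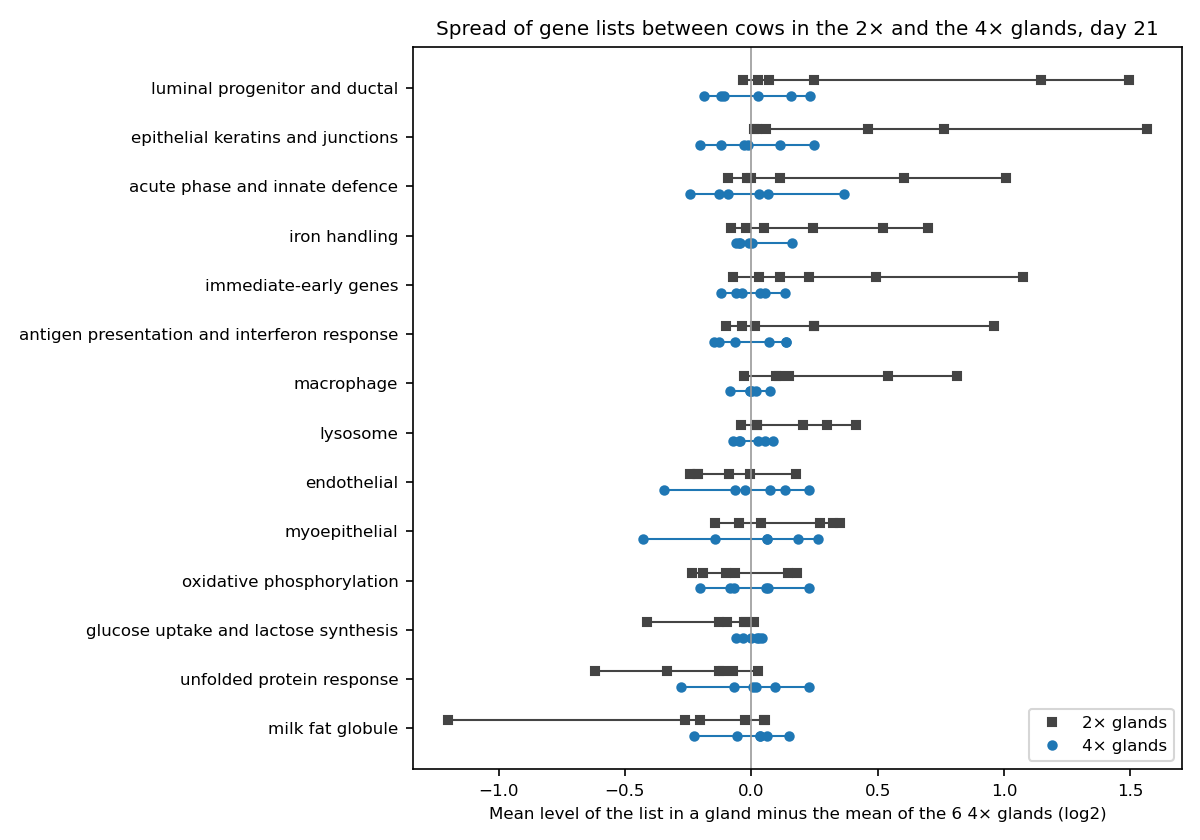
Mean log2 level of 14 gene lists in each 2× gland (squares) and each 4× gland (circles) on day 21, each minus the mean of the 6 4× glands of that list (x axis), with lines from the lowest to the highest gland. Macrophage, keratin and milk fat globule lists have 2× glands that stand apart on 1 side of the 4× glands; endothelial, myoepithelial and oxidative phosphorylation genes have like spans in both.

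Day 40 was compared because both rear glands were then milked 2×. The test was limma on the day 21 difference minus the day 40 difference of the same cow. At an unadjusted p under 0.05 it gave 2647 of 24016 probe sets (11.0%), and after adjustment 0, with a smallest adjusted p of 0.284. Of the 29 higher named genes 26 had a positive mean on day 40, with a median of 0.18 against 0.62 on day 21, and of the 26 lower ones 25 had a negative mean, with a median of −0.49 against −0.95. These genes were chosen by their day 21 values, so the smaller day 40 values carry no test. The difference of LRP2 was 0.97 larger on day 21 (SE 0.18), and those of CKB and RBFOX2 were −0.47 (SE 0.11) and −0.38 (SE 0.10), with values of 0.02 and −0.05 on day 40. By contrast, SOX4, SOX9, CYBRD1 and FRRS1 had −0.83, −0.88, −1.05 and −0.96 on day 40, and the differences between the days had a p of 0.05 or more. CHI3L1 had −1.18 (SE 0.64) on day 40, and the difference of the days was −0.79 (SE 0.40, adjusted p = 0.482).

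The genes named for their change between the 2 days, by the size of its p and all with an adjusted p of 0.284 or 0.354, were chosen with the same sign in 6 of 6 cows. MSTN had 0.83 on day 21 and −0.36 on day 40 on 1 probe set, a change of 1.19 (SE 0.19), but 0.22 on day 40 on the other. PDK4, which turns off pyruvate dehydrogenase when fat is burnt, had 0.00 on day 21 and −0.61 on day 40, and its brightest probe set had −0.04 and −0.55. COL17A1, a collagen of the hemidesmosomes of basal cells, went the other way, from −0.56 (SE 0.16) to 0.34 (SE 0.14). RBM5, a splicing factor, had −0.75 (−0.48 without cow 1) and 0.23, and SSR3, a subunit of the complex beside the translocon, 0.52 (0.30 without cow 1) and −0.19 on this probe set and 0.41 and 0.12 on a brighter one. A brighter RBM5 probe set had −0.12 on day 21, not under the threshold.

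By list, 9 of 30 genes of the unfolded protein response had a more positive difference on day 21 than on day 40, as did 7 of 28 of translocation and glycosylation, 3 of 7 of UFM1 conjugation, 5 of 15 endothelial genes and 6 of 20 of energy sensing, beside 5.84% of all 9172 genes, and 0 in these lists had a more negative one. More negative on day 21 were 8 of 33 acute phase genes, 6 of 22 complement genes, 6 of 13 luminal genes, 4 of 8 ERBB genes, 6 of 32 genes of antigen presentation and 5 of 20 of keratins and junctions, beside 4.94% of all genes. Endothelial and energy sensing lists had means of 0.10 and 0.04 on day 21 and −0.13 and −0.10 on day 40. On day 40 their means were lower in the formerly 4× gland of 5 and of 6 cows, so their counts are not increases on day 21 alone. Iron handling and lysosome lists had negative means on both days, of −0.23 and −0.15 on day 21 and −0.26 and −0.14 on day 40. Scaling to reference genes tilted this comparison, with 1991 probe sets more positive on day 21 and 110 more negative in place of 1345 and 1302.

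**Figure D4:**
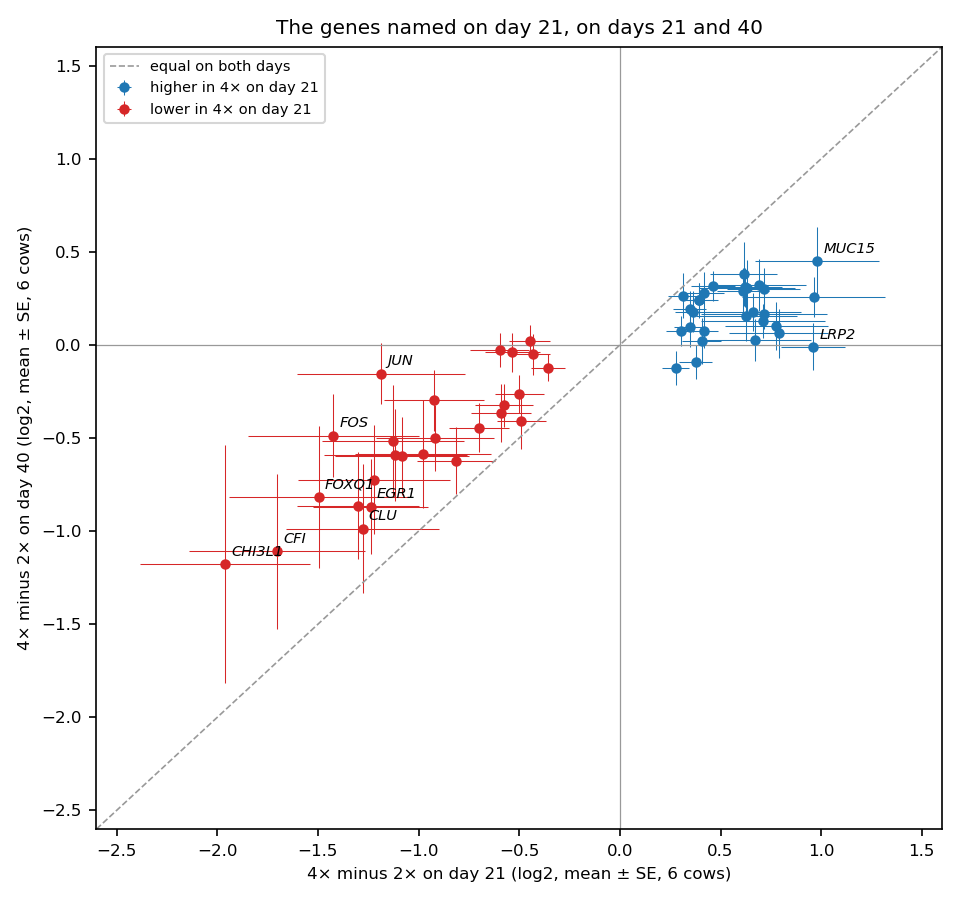
Differential expression (log2, mean ± SE over 6 cows) of the 55 named genes on day 21 (x axis) and on day 40, when both sides were milked 2× (y axis), with genes higher on day 21 in blue, lower in red and a dashed line where both days are equal. Most points lie between the dashed line and 0; CLU and EGR1 lie near the line, at −0.99 and −0.87 on day 40, whereas LRP2 and JUN lie near 0 on day 40, at −0.01 and −0.15.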

How the data were processed

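Biopsies of 6 cows were hybridised singly to the GeneChip Bovine Genome Array. The deposited values are log2 levels that the authors computed from the scanner intensities by RMA (background correction, quantile normalization and probe set summary), and the version of that software is not given in the sources used here. The 24128 probe sets less the AFFX controls left 24016. Arrays have no read depth, so their number limits the precision. Within-cow differences were tested with limma 3.58.1 in R 4.3.3 with Benjamini-Hochberg adjustment over all 24016, the source of every p-value. Differences between days 21 and 40 were tested the same way. Replicate numbers in the labels, taken as cow numbers, pair the glands. The deviations of paired glands correlated in 6 of 6 cows (r of 0.336 to 0.542).

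Gene symbols came from GEO's platform annotation, in which 13292 probe sets had 1 symbol, 86 had several and 10638 had none, and 23 were named as in the study. A gene in a list was taken by its probe set of highest mean level, and 990 of 1224 list entries were measured. Named genes were, in each direction, the 15 with the smallest p and the 15 with the largest mean difference at p under 0.05, with 1 symbol, a mean level of at least 5 and the same sign in 6 of 6 cows. For the change from day 40 they were the 10 with the smallest p in each direction. Of each list the 3 with the smallest p were named, beside others shown for contrast, and genes the study names. The members and lists were chosen with earlier results of these data known. The fit was tested on simulated data. Alternatives were no pairing, a shared spread, no moderation, array weights, no dim probe sets, 5 reference genes, 1 probe set a gene and leaving out each cow.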

Additional observations from a re-analysis of the deposited data

Results flagged for a closer look

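In 11 of the 55 named genes and 15 of the 46 lists, 1 cow lay further from the other 5 than Dixon's critical value allows for 6 samples. Chance alone does so in about 1 of 20 independent groups. The genes were chosen from these same differences, and genes and lists share the arrays of a cow. These counts therefore carry no test of an excess over chance. The far cow was cow 1 for all 11 genes and for 14 of the 15 lists. Values are within-cow differences (4× minus 2×, log2). FZD5 was at 3.34 in cow 1 and 0.35 to 0.69 in the others. SLC16A1 was at 2.82 against 0.16 to 0.40 and PTHLH at 2.74 against 0.00 to 0.46. HNRNPLL, an RNA-binding splicing factor, was at 2.48 against 0.05 to 0.61, OSGIN2 at 2.37 against 0.21 to 0.75, the glycerol kinase GK at 2.20 against 0.10 to 0.83, and the DNA repair nuclease ERCC5 at 2.15 against 0.10 to 0.72. UFM1 was at 1.83 on its dimmer probe set. Lower in cow 1 were JUN at −3.95 against −1.20 to −0.17, LGALS3 at −3.17 against −1.15 to −0.07 and GGT6 at −1.45 against −0.60 to −0.25.

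Among lists, cow 1 stood above the others for the milk fat globule (1.24), fatty acid uptake and activation (0.69), translocation and glycosylation (0.56), the unfolded protein response (0.55), amino acid and ion transporters (0.54), triglyceride synthesis (0.50), fatty acid synthesis (0.47), glucose uptake and lactose synthesis (0.45), vesicle coats (0.43) and milk proteins (0.29). Cow 1 stood below for keratins and junctions (−1.45), immediate-early genes (−1.04), antigen presentation (−0.82) and the cell cycle (−0.28). Red blood cell genes were far in cow 3 (0.32), at levels near background. What set cow 1 apart was not tested.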

How the results depend on the processing

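The replicate numbers, taken as cow numbers, pair the glands. Without the replicate block the counts at an unadjusted p under 0.05 were 506 higher and 377 lower on day 21 in place of 1277 and 1202. They were 246 and 387 for the change from day 40 in place of 1345 and 1302. Of list members 13 were higher and 32 lower, where the paired fit had 59 higher. In each of these fits the count with an adjusted p under 0.05 was 0. With a spread shared by the 3 days the counts were 1927 and 1899 on day 21, 793 and 651 for the change from day 40, and 123 list members were higher. With no moderation of the spread 510 probe sets and 41 list members were lower. With 1 probe set a gene there were 400 higher and 511 lower. Scaling to 5 reference genes gave 644 lower on day 21 and 110 more negative than on day 40, and leaving out dim probe sets 712 more negative. As each cow was left out, the counts were 827 to 1459 higher and 744 to 1591 lower, with the fewest without cow 6 and 792 lower without cow 1, and 71 (without cow 3) to 130 lower list members. Why these counts moved was not tested, beyond the fewer features tested in the fits with 1 probe set a gene or no dim ones.

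Of 181 genes named by rule with a p under 0.05, 72 kept that p without the replicate block, 83 with no moderation of the spread, 126 without cow 3 and 160 without cow 1. Under the alternatives 0 changed direction, but fits that alter only the pairing or the spread leave the mean of a gene as it is. The genes were also taken for a p under 0.05, so this 0 carries no test. Scaling to reference genes changed the sign of 8 of 46 list medians, and leaving out cow 1 of 5. With 6 pairs of arrays and no array repeated, small differences cannot be resolved.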
